A study of Mus musculus with 12 samples.

Results

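Radiotherapy given alone was compared with muFAP-4-1BBL given alone in mouse tumours, over all genes that passed a low-count filter. The comparison took 6 of the 12 libraries of the study, chosen by their treatment labels: 3 from tumours that received radiotherapy (RT) and 3 from tumours that received muFAP-4-1BBL, which the study describes as an agonist of the 4-1BB receptor directed to fibroblast activation protein α. All tumours were grown from TS/A mammary carcinoma cells together with cancer-associated fibroblasts, and all samples carry the genotype label WT. The other 6 libraries came from tumours given both treatments (3 libraries) and from untreated tumours (3 libraries with the treatment label None, a group that the series text calls vehicle), and they served here for the estimate of spread and as levels measured the same way. The labels give no radiation dose, agonist dose, harvest time, mouse age or strain, and they do not tie libraries to animals, so a p-value here reflects only variation among these samples, and that variation may be technical.

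Ionising radiation breaks DNA, and cells respond through the p53 transcription factor, which switches on genes of cell cycle arrest and repair. DNA that reaches the cytosol can also be sensed there, and the type I interferon that follows induces a large family of antiviral genes. 4-1BB (Tnfrsf9) is a costimulatory receptor on activated T cells and natural killer cells, and its ligand is encoded by Tnfsf9. An agonist held at fibroblasts through fibroblast activation protein is meant to supply that costimulation within the tumour stroma.

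The 6 libraries were of similar depth, with 39367317 to 42067481 counts in RT and 34076477 to 39069755 in muFAP-4-1BBL. Markers of epithelium and of fibroblasts were measured in both groups. Krt8, a keratin of luminal epithelium, averaged 345 ± 105 CPM (counts scaled to library size) in RT and 301 ± 60.4 in muFAP-4-1BBL (SD, n = 3 each), and Pdgfra, a fibroblast receptor, averaged 124 ± 8.59 in RT and 138 ± 26.0 in muFAP-4-1BBL. Epcam, an epithelial adhesion molecule, was near 0 by comparison, at 0.218 to 0.723 CPM in RT and 2.59 to 4.41 CPM in muFAP-4-1BBL. Of the 21 listed epithelial genes, 18 had a log2 difference below 0 (median -0.70). In 11 of them RT was lower without overlap, which holds for 7.58% of all tested genes. A difference in tissue content ran along the treatments. The 38 genes of skeletal muscle fibres took 0.898, 0.872 and 1.95% of the counts in RT 1 to 3, against 0.0766, 0.0301 and 0.307% in muFAP-4-1BBL 1 to 3. The combined group held 0.098 to 0.165% and the untreated group 0.0269 to 0.113%, so the 3 RT libraries stood above the other 9 without overlap. The genes of fat cells did not separate the groups in this way, at 0.0818 to 0.173% in RT and 0.121 to 0.19% in muFAP-4-1BBL.

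**Figure D1:**
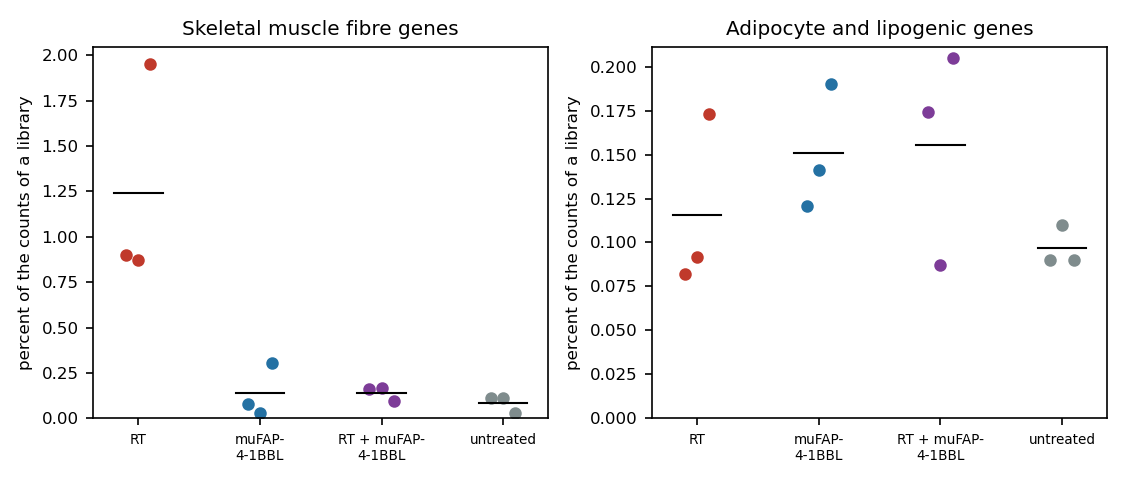
Percent of each library's counts that fell on the listed skeletal muscle fibre genes (left panel) and on the listed adipocyte and lipogenic genes (right panel), by treatment group; points are libraries and the line is the mean of 3. The muscle share of the 3 RT libraries lies at 0.872% or above and that of the other 9 libraries at 0.307% or below, while the adipocyte shares of the groups overlap.

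Muscle content was high only in the group given radiotherapy alone, and for many of the genes below 2 measurements that bear on it are given. The first is the combined group, which was irradiated and held little muscle. The second is a fit that takes each library's muscle score, the mean log2 CPM of the muscle fibre genes, as a covariate. With that score in the model none of the 17757 tested genes passed the threshold in edgeR (1314 had an unadjusted p under 0.05). Outside the muscle fibre list the median standard error of each list widened by construction, since score and treatment rose together. The median over the type I interferon genes was 0.32, against 0.19 without the score. For the muscle fibre genes, which make up the score, it narrowed from 1.03 to 0.44. Radiotherapy and muscle content therefore could not be told apart by this test, although it was fitted to all 12 libraries. The estimates of that fit are given below for some genes and lists, and not for every one. In bulk tissue, fewer cells of a type and less RNA per cell likewise cannot be told apart.

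Of 17757 genes tested, 623 differed between the treatments at an adjusted p under 0.05 (edgeR quasi-likelihood test, Benjamini-Hochberg adjustment), which is 3.51%. More were higher in RT than lower: 474 genes (2.67%) were higher and 149 (0.839%) lower, while 48.7% of all tested genes had a log2 difference above 0 and the median over all was -0.01. These shares are the background for every count of called list members below. The RT and muFAP-4-1BBL libraries did not overlap for 3039 genes (17.1%), with RT higher for 1693 (9.53%) and lower for 1346 (7.58%). The count leaned on single libraries. It was 139 without muFAP-4-1BBL 1, 299 without muFAP-4-1BBL 2 and 317 without RT 2, and the higher count alone was 314 without RT 3 and 713 without muFAP-4-1BBL 3. A core of 113 genes, 93 higher and 20 lower, passed in all 6 fits that each left out 1 library. The spread was taken from all 12 libraries; a fit of only the 6 compared ones called 210 genes, and DESeq2 called 1333.

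Set beside the untreated tumours, the contrast lay mostly on the radiotherapy side. All 474 genes higher in RT than in muFAP-4-1BBL were also above untreated tumours in RT, with a median log2 difference of 1.80, and their median in muFAP-4-1BBL was 0.14, with 341 above and 133 below untreated. Of the 149 lower genes, 146 were below untreated in RT, with a median of -0.75, and the median in muFAP-4-1BBL was -0.05. In the test against untreated tumours, 459 of the 474 and 116 of the 149 passed in RT, and 0 of either set passed in muFAP-4-1BBL by edgeR, where 39 of the 474 and 34 of the 149 had an unadjusted p under 0.05. These single-treatment values share the 3 untreated libraries, and the choice of genes by the head-to-head test fixes part of their pattern, so they are given as a description.

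**Figure D2:**
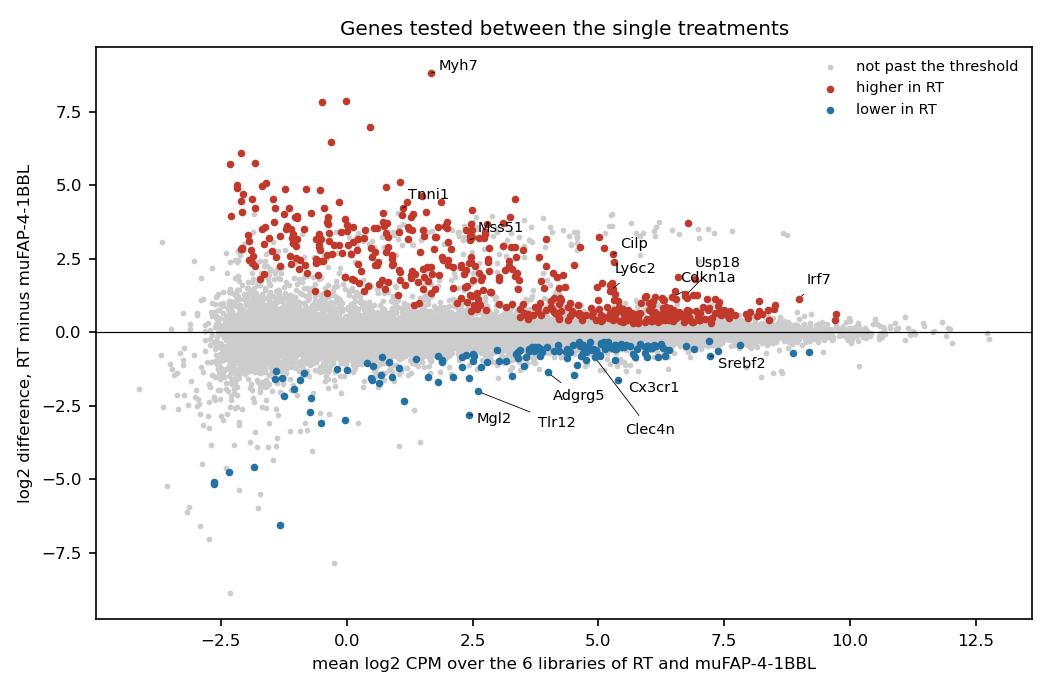
Log2 difference between RT and muFAP-4-1BBL (vertical axis, RT minus muFAP-4-1BBL) against the mean log2 CPM over the 6 libraries (horizontal axis) for every tested gene with a symbol; red points were higher in RT and blue points lower at an adjusted p under 0.05. Genes such as Myh7 and Tnni1 lie at low abundance with large differences, and Cdkn1a, Usp18 and Irf7 at high abundance with smaller ones.

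The genes of the agonist's own target and receptor did not pass the test. Fap, which encodes the protein that the agonist binds, stood at 14.7, 10.6 and 17.1 CPM in RT 1 to 3 and at 5.74, 7.67 and 18.9 in muFAP-4-1BBL 1 to 3 (log2 difference 0.39, SE 0.43, adjusted p = 0.721). The libraries overlap, with muFAP-4-1BBL 3 the highest of all 6. Tnfrsf9, the 4-1BB receptor, averaged 31.0 ± 4.61 CPM in RT, 32.8 ± 4.87 in muFAP-4-1BBL and 21.8 ± 2.15 in untreated tumours (SD, n = 3 each), and its log2 difference between the single treatments was -0.08 (SE 0.15, adjusted p = 0.846). Tnfsf9 averaged 13.3 ± 1.79 CPM in RT and 11.7 ± 1.78 in muFAP-4-1BBL (adjusted p = 0.582).

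Among 31 listed target genes of p53, 6 rose in RT and 1 fell, against 2.67% and 0.839% of all tested genes, and the median log2 difference of the list was 0.13. Cdkn1a, the inhibitor of cyclin-dependent kinases that carries out p53 arrest, stood at 148, 112 and 144 CPM in RT 1 to 3 and at 55.5, 60.1 and 61.5 in muFAP-4-1BBL 1 to 3. The lowest RT library was above the highest muFAP-4-1BBL library by a wide gap (log2 difference 1.19, SE 0.14, adjusted p = 0.00162). In the combined group Cdkn1a averaged 137 ± 20.3 CPM, level with RT, and in untreated tumours 41.9 ± 5.29. Ccng1, a cyclin G that feeds back on p53, was at 211, 215 and 250 CPM in RT and at 114, 135 and 117 in muFAP-4-1BBL, again without overlap (log2 difference 0.89, SE 0.11, adjusted p = 0.00173). Its combined-group mean of 153 ± 5.13 CPM lay between the single treatments.

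The other members that rose do related work. Aen, a nuclease of apoptosis, averaged 59.0 ± 3.59 CPM in RT and 34.4 ± 1.25 in muFAP-4-1BBL. Sesn2, a stress-induced sestrin that restrains growth signalling, averaged 24.4 ± 2.57 in RT and 15 ± 0.0927 in muFAP-4-1BBL. Tigar, which lowers glycolytic flux, averaged 21.8 ± 1.10 in RT and 13.6 ± 1.28 in muFAP-4-1BBL. Eda2r, a receptor of the tumour necrosis factor family, showed the widest step of the list, at 7.56, 8.01 and 12.8 CPM in RT and 1.41, 1.82 and 2.90 in muFAP-4-1BBL (log2 difference 2.21, adjusted p = 0.0108), a call lost without muFAP-4-1BBL 1. Eda2r is one of the genes whose level also followed the muscle score over the 9 libraries outside RT (Spearman rho 0.78), against 0.50 for Cdkn1a and 0.43 for Ccng1. Ddb2, which recognises DNA damaged by ultraviolet light, fell, with 13.2 ± 1.95 CPM in RT and 18.7 ± 1.65 in muFAP-4-1BBL (log2 difference -0.51, adjusted p = 0.0474), a call lost in 4 of the 6 fits that leave out a library and with the replicate number as a block (adjusted p = 0.069). Eda2r and Ddb2 were named after their values were seen.

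Cdkn1a, Ccng1, Aen and Sesn2 passed in all 6 leave-one-out fits, which each omit 1 library, and with the muscle score as a covariate their estimates stayed near the original ones for Cdkn1a (1.06, SE 0.26) and Ccng1 (0.82, SE 0.20). The number of members that rose was 5 to 7 over the leave-one-out fits. Genes of DNA double-strand break repair and its checkpoint gave 0 calls in 24 by edgeR (2 at an unadjusted p under 0.05; 1 call by DESeq2 and 0 by limma-voom), with log2 differences from -0.23 to 0.44 and a median of 0.06.

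In the edgeR fit of all 12 libraries the type I interferon response held more calls than any other list; DESeq2 called 26 of its genes and limma-voom 24, fewer than the 33 and 35 of the muscle fibre list. Of its 31 tested genes 20 rose in RT, against 2.67% of all tested genes, and all 31 had a log2 difference above 0, with a median of 0.76. In 27 of them the 3 RT libraries lay above the 3 muFAP-4-1BBL libraries, which holds for 9.53% of all tested genes. Promoter windows of RefSeq promoter sequence are shown because the response is known to run through a short DNA element, the interferon-stimulated response element, whose core was searched on both strands as GAAA, any 2 bases and GAAA again.

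Each sequence below gives the 250 bases before the annotated start, 5′ to 3′ on the strand of the gene, with matches to the core on either strand in capitals. Rsad2, Oas1a and Ifit3 are the called genes with the smallest p whose window holds the core, and Cmpk2 is the called gene with the smallest p whose window does not. Coordinates are of GRCm38.p6, the build of the RefSeq table, and the counts were made on another build: Rsad2 chr12:26456453-26456702, minus strand; Oas1a chr5:120907526-120907775, minus strand; Ifit3 chr19:34583279-34583528, plus strand; Cmpk2 chr12:26468965-26469214, plus strand.
Rsad2: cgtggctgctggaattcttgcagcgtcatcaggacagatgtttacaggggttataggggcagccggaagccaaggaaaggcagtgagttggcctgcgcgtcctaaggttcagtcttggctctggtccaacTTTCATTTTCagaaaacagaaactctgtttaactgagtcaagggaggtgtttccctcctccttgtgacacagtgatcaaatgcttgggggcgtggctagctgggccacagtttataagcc
Oas1a: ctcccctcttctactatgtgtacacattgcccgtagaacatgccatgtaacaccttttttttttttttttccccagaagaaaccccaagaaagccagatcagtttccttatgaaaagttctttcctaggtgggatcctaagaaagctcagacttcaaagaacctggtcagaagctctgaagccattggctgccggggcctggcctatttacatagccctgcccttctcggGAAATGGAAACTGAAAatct
Ifit3: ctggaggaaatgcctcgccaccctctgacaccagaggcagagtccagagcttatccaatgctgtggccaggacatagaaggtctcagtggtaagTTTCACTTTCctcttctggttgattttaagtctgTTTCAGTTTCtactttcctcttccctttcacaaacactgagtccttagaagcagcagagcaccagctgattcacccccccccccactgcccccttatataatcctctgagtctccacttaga
Cmpk2: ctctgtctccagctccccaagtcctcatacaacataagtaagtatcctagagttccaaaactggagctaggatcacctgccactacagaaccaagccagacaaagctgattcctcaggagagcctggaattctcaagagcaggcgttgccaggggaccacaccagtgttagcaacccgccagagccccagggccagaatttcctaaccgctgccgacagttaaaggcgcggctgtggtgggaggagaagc

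The capitals in Rsad2 begin 120 bases before the start, those in Oas1a 20 and 14 bases before it as overlapping matches, and those in Ifit3 156 and 122 bases before it. Over windows of 300 bases, which also take in the first transcribed bases, the core was found in 12 of the 25 windows that matched the list (48%; 21 of the 31 genes had a window) and in 3.44% of all 32851 windows of the table. Among the 20 genes that rose, 15 had a window and 9 of those held the core. The nucleic acid sensing list, which shares genes with the interferon list, gave 31.6% (6 of 19 windows). The p53 list gave 3.33% and both muscle lists 0%. A match is a run of letters and says nothing of a factor's binding, and the list itself was assembled from known interferon-induced genes.

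Usp18, a protease that removes ISG15 and damps interferon signalling, stood at 187, 163 and 138 CPM in RT 1 to 3 and at 63.0, 80.7 and 63.9 in muFAP-4-1BBL 1 to 3. The groups are far apart, with the lowest RT library well above the highest muFAP-4-1BBL library (log2 difference 1.23, SE 0.21, adjusted p = 0.0112). Irf7, the transcription factor that amplifies interferon production, was at 859, 656 and 740 CPM in RT and at 312, 403 and 312 in muFAP-4-1BBL (log2 difference 1.13, SE 0.20, adjusted p = 0.0117). Rsad2, the antiviral enzyme viperin, was at 188, 204 and 191 CPM in RT and at 59.8, 103 and 78.6 in muFAP-4-1BBL (log2 difference 1.28, adjusted p = 0.0169). In each case muFAP-4-1BBL 2 was the highest of its group, and it did not reach any RT library.

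Cmpk2, a mitochondrial nucleotide kinase beside Rsad2 on the chromosome, averaged 99.1 ± 9.84 CPM in RT and 47.1 ± 8.13 in muFAP-4-1BBL. Oasl1, an oligoadenylate synthetase-like protein, averaged 114 ± 5.24 in RT and 52.8 ± 5.35 in muFAP-4-1BBL. Ifit3, an antiviral RNA-binding partner, averaged 167 ± 9.10 in RT and 67.1 ± 13.6 in muFAP-4-1BBL, and Oas1a averaged 183 ± 25.8 in RT and 102 ± 14.0 in muFAP-4-1BBL. Ifit3 and Oas1a were named after their values were seen. The smallest difference of the list was 0.17 and the largest 1.31 on the log2 scale.

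**Figure D3:**
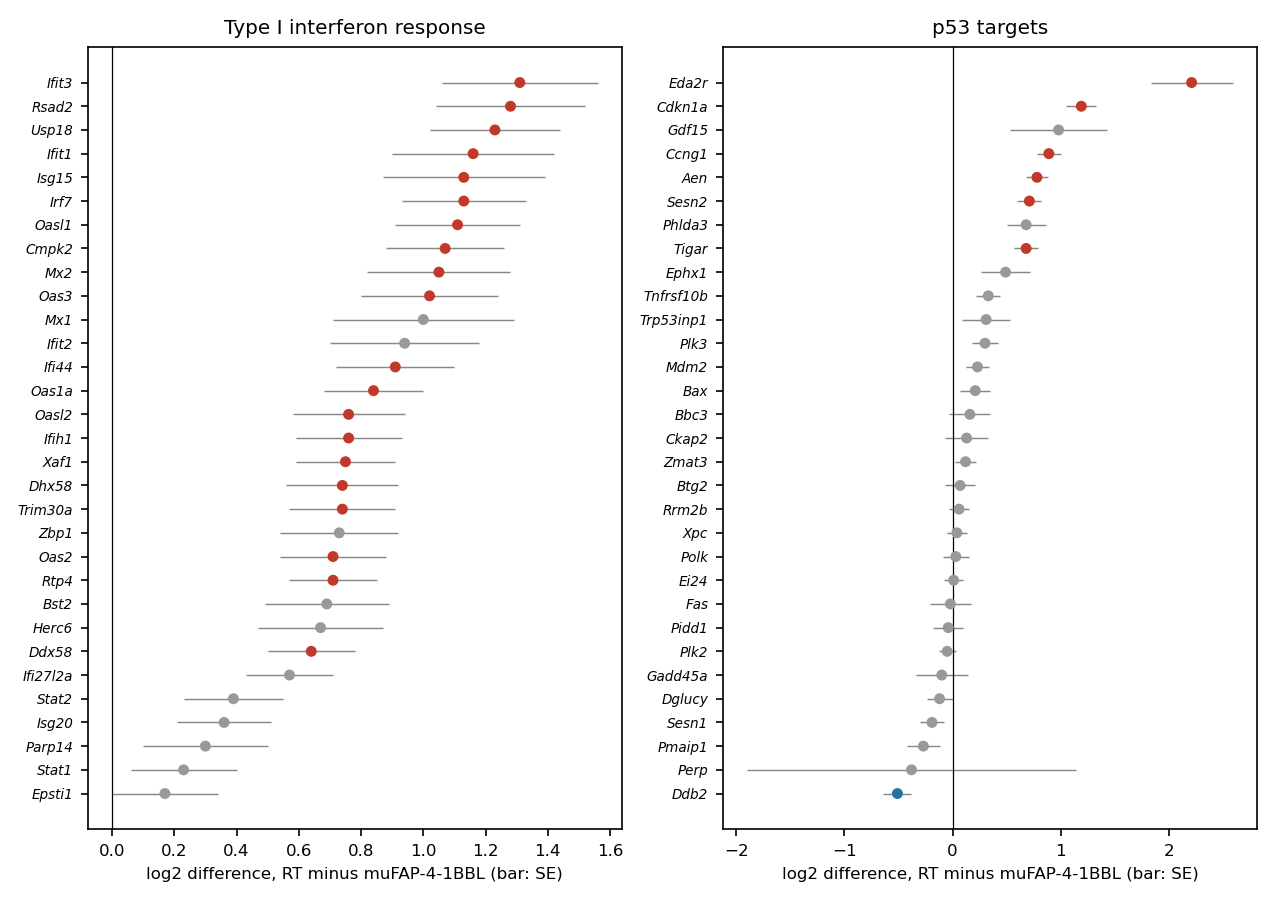
Log2 difference, RT minus muFAP-4-1BBL, of each tested member of the type I interferon list (left) and the p53 target list (right); points are the fitted values and bars their SE, with red for higher and blue for lower in RT at an adjusted p under 0.05 and grey for the rest. All 31 interferon genes lie right of 0 and 20 are red, while the p53 list has 6 red members and 1 blue one among 31 spread on both sides of 0.

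The combined tumours, irradiated, given muFAP-4-1BBL and low in muscle, stood near RT for these genes. Usp18 averaged 138 ± 43.7 CPM there, Rsad2 182 ± 55.3 and Oasl1 123 ± 39.3, while untreated tumours averaged 53.7 ± 9.60 for Usp18, 51.3 ± 11.3 for Rsad2 and 40.1 ± 8.02 for Oasl1. The list's mean log2 CPM was 7.5, 7.42 and 7.46 in the RT libraries, 6.52, 6.90 and 6.5 in muFAP-4-1BBL, 7.43, 7.93 and 7.23 in the combined group and 6.29, 6.25 and 6.51 in untreated tumours. Under the muscle covariate the list's median was 1.19, and Usp18 gave 1.66 (SE 0.36). The number of calls was sensitive to single libraries although the median was not: it was 0 without muFAP-4-1BBL 1, 6 without RT 2, 8 without muFAP-4-1BBL 3, 10 without RT 3 and 12 when only the 6 libraries were fitted. Over the 6 leave-one-out fits the medians were 0.68 to 0.96, and 26 to 28 members had an unadjusted p under 0.05 in each of them (27 without muFAP-4-1BBL 1).

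Of 21 genes listed under nucleic acid sensing, 4 rose and 1 fell, against 2.67% and 0.839% of all tested genes. The 1 that fell, Tlr12, is a receptor for profilin and not a sensor of nucleic acids. Ddx58, which encodes the RNA sensor RIG-I, averaged 224 ± 15 CPM in RT and 144 ± 21.5 in muFAP-4-1BBL. Ifih1, the RNA sensor MDA5, averaged 189 ± 16.8 in RT and 112 ± 24.0 in muFAP-4-1BBL. Ifi204, a DNA sensor, was at 340, 346 and 300 CPM in RT and at 203, 247 and 170 in muFAP-4-1BBL, and Dhx58, a regulator of those RNA sensors, completed the set of 4 (adjusted p = 0.0471, and 0.0649 with the replicate block), a call lost in all 6 leave-one-out fits. Ddx58, Ifih1 and Dhx58 are also members of the interferon list, and the count of 4 was 0 without RT 2, without muFAP-4-1BBL 1 or without muFAP-4-1BBL 3. Tlr12, an endosomal receptor for profilin found on dendritic cells and macrophages, went the other way, at 4.68, 1.31 and 3.71 CPM in RT and 13.2, 16.2 and 9.57 in muFAP-4-1BBL (log2 difference -2.01, SE 0.42, adjusted p = 0.0274). The replicate block (adjusted p = 0.0558) and the fits without RT 3, muFAP-4-1BBL 1 or muFAP-4-1BBL 2 each lost that call, and its combined-group mean was 13.2 ± 4.09 CPM.

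Genes induced mainly by interferon-gamma gave no call by edgeR. Of 28 genes 0 passed by edgeR (6 at an unadjusted p under 0.05; 1 call by DESeq2 and 0 by limma-voom), and the median was 0.14. Gbp3, a guanylate-binding protein, was at 313, 251 and 264 CPM in RT and at 172, 224 and 156 in muFAP-4-1BBL (adjusted p = 0.115), and Ifng itself averaged 1.92 ± 1.23 CPM in RT and 2.10 ± 0.437 in muFAP-4-1BBL (adjusted p = 0.927). Cd274, the gene of the checkpoint ligand PD-L1, was at 132, 64.4 and 145 CPM in RT and at 93.6, 149 and 103 in muFAP-4-1BBL, with overlapping groups (log2 difference -0.02). Of 16 genes of MHC class I presentation 0 passed by edgeR, DESeq2 or limma-voom, 0 had an unadjusted p under 0.05, and the median was 0.07. A test of the difference between the interferon lists was not made.

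Among cytotoxic effectors, 3 of 22 genes rose in RT and 1 fell, against 2.67% and 0.839% of all tested genes. The 1 that fell was Cx3cr1, which is also listed with the macrophage and monocyte genes and is described there. The risers were neighbouring granzymes. Gzmc, a serine protease of cytotoxic granules, was at 62.7, 57.5 and 41.7 CPM in RT, at 15.9, 22.0 and 18.7 in muFAP-4-1BBL and at 8.92, 10.6 and 4.64 in untreated tumours. All RT libraries were above all muFAP-4-1BBL libraries, and those were above the untreated ones (log2 difference between the single treatments 1.52, SE 0.25, adjusted p = 0.00977). The combined group averaged 31.1 ± 2.74 CPM of Gzmc. Gzmd averaged 36.1 ± 8.58 CPM in RT and 7.57 ± 3.72 in muFAP-4-1BBL, and Gzme averaged 12.7 ± 2.28 in RT and 3.46 ± 1.58 in muFAP-4-1BBL. Their log2 differences were 2.26 for Gzmd and 1.87 for Gzme. Under the muscle covariate the estimates were 1.14 (SE 0.47) for Gzmc, 1.17 (SE 0.73) for Gzmd and 0.73 (SE 0.71) for Gzme. These granzymes are close copies of one another, so their counts may share reads. With the replicate number as a block the count was 1, with Gzmd (adjusted p = 0.057) and Gzme (adjusted p = 0.066) lost, and without muFAP-4-1BBL 1 no member rose. Gzmb, the main granzyme of killer lymphocytes, was at 75.3, 53.7 and 71.3 CPM in RT and at 23.1, 49.4 and 29.4 in muFAP-4-1BBL, without overlap but short of the threshold (log2 difference 0.98, SE 0.32, adjusted p = 0.135). The Gzmb estimate under the muscle covariate was 1.51 (SE 0.56).

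T cell genes lay in the other direction. Cd4, the helper T cell coreceptor, was at 8.04, 6.02 and 9.42 CPM in RT and at 14.4, 22.6 and 14.6 in muFAP-4-1BBL. No RT library reached the lowest muFAP-4-1BBL library (log2 difference -1.14, SE 0.23, adjusted p = 0.0200). Cd4 was the single call among 24 T cell genes, which lay below 0 in 23 of 24 cases with a median of -0.62, and the groups did not overlap, with RT lower, in 15 of 24, against 7.58% of all tested genes. Cd8a, of killer T cells, was at 11.0, 4.34 and 10.5 CPM in RT and at 16.1, 18.1 and 19.3 in muFAP-4-1BBL (log2 difference -1.05, SE 0.32, adjusted p = 0.107). Cd3e, a chain of the T cell receptor complex, was at 5.29, 3.37 and 7.5 in RT and at 8.78, 10.5 and 10.4 in muFAP-4-1BBL (adjusted p = 0.116). RT 2 was the lowest library for all 3 genes, and it carried the lowest T cell list mean of the 12 libraries, at 1.48 log2 CPM beside 2.13 and 2.27 in the other RT libraries, 2.37 to 2.82 in muFAP-4-1BBL, 2.57 to 2.99 in the combined group and 1.94 to 2.45 in untreated tumours. Without RT 2 or without muFAP-4-1BBL 2 the Cd4 call was lost. Under the muscle covariate the Cd4 estimate was -0.75 (SE 0.40) and the median of the T cell list was -0.64.

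Some regulators known from T cells also fell. In bulk tissue the cells that expressed them cannot be told, and Ikzf2 stood far above Foxp3 in both groups. Tox, a nuclear factor of persistently stimulated T cells, was at 0.767, 0.728 and 0.848 CPM in RT, at 2.11, 2.14 and 2.90 in muFAP-4-1BBL and at 1.32, 0.927 and 1.54 in untreated tumours (log2 difference between the single treatments -1.61, SE 0.27, adjusted p = 0.00830). The RT libraries were the lowest of these 9 and the muFAP-4-1BBL libraries the highest. Tox averaged 2.06 ± 0.429 CPM in the combined group, and its estimate under the muscle covariate was -1.55 (SE 0.46). Tox passed in every leave-one-out fit and was the single call among 23 checkpoint and costimulation genes. Ikzf2, the Ikaros-family factor Helios of regulatory T cells, averaged 25.4 ± 2.37 CPM in RT and 38.5 ± 4.74 in muFAP-4-1BBL (log2 difference -0.60, adjusted p = 0.00977) and 30.2 ± 0.567 in the combined group, while Foxp3 averaged 2.15 ± 0.552 in RT and 3.16 ± 1.09 in muFAP-4-1BBL (adjusted p = 0.405). Cxcr6, a chemokine receptor of tissue-resident T cells, averaged 6.51 ± 2.44 CPM in RT and 12.9 ± 1.17 in muFAP-4-1BBL (adjusted p = 0.0417), a call lost in 5 of the 6 leave-one-out fits. The 12 natural killer cell genes had 0 calls by edgeR (2 at an unadjusted p under 0.05; 1 call each by DESeq2 and limma-voom) and a median of -0.27. The 15 genes of B and plasma cells had 0 calls by edgeR (4 at an unadjusted p under 0.05; 1 call each by DESeq2 and limma-voom) and a median of -0.20.

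**Figure D4:**
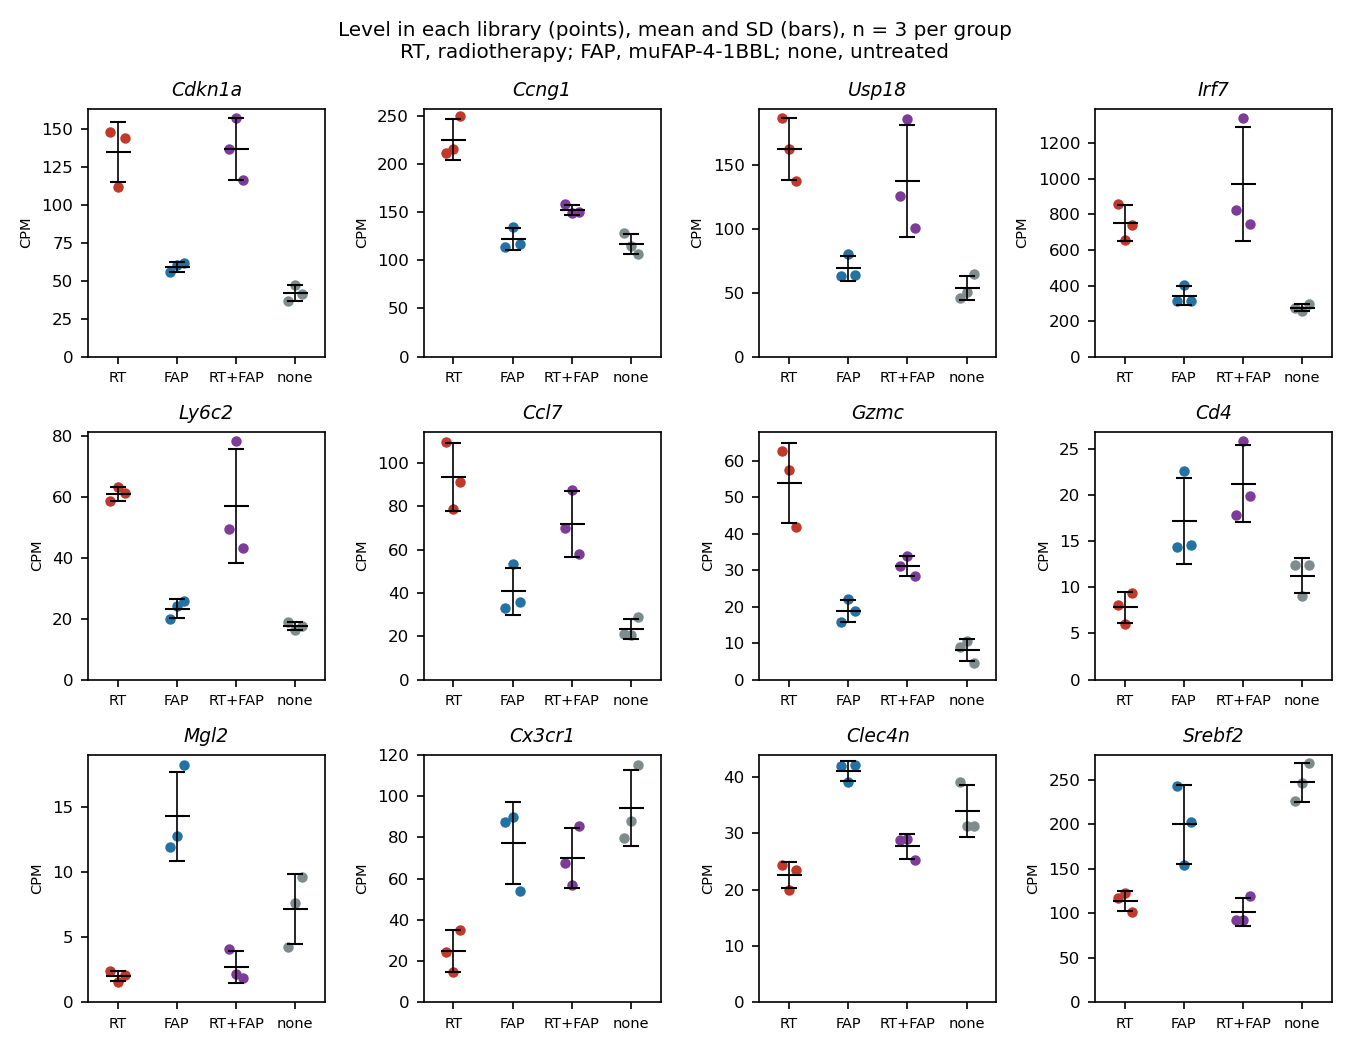
CPM of 12 genes in each library of the 4 groups (points), with the mean and SD of 3 libraries (bars). RT lies above muFAP-4-1BBL without overlap for the 7 genes from Cdkn1a to Gzmc and below it without overlap for the 5 from Cd4 to Srebf2. The combined group lies near RT for Cdkn1a, Irf7, Mgl2 and Srebf2 and near muFAP-4-1BBL for Cd4 and Cx3cr1.

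The myeloid genes split. Mgl2, a galactose-binding lectin of alternatively activated macrophages and some dendritic cells, showed the largest fall among called genes above a mean of 1 log2 CPM, at 2.38, 1.6 and 2.14 CPM in RT, 11.9, 12.8 and 18.2 in muFAP-4-1BBL and 4.24, 7.67 and 9.61 in untreated tumours (log2 difference between the single treatments -2.80, SE 0.36, adjusted p = 0.00257). RT lay below the untreated tumours and muFAP-4-1BBL above them. In the combined group the mean was 2.73 ± 1.2 CPM, as low as in RT. Clec4n, the fungal-sensing lectin Dectin-2, averaged 22.6 ± 2.29 CPM in RT, 41.1 ± 1.76 in muFAP-4-1BBL and 27.7 ± 2.16 in the combined group (log2 difference between the single treatments -0.86, adjusted p = 0.00299). Gpr34, a lysophosphatidylserine receptor of macrophages, averaged 4.22 ± 0.997 CPM in RT, 9.58 ± 1.07 in muFAP-4-1BBL and 4.69 ± 0.662 in the combined group. These 3 genes passed in every leave-one-out fit, and under the muscle covariate the estimates were -2.75 (SE 0.57) for Mgl2, -1.11 (SE 0.20) for Clec4n and -1.35 (SE 0.36) for Gpr34.

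A second set of myeloid genes was lower in RT than in muFAP-4-1BBL, with the combined group nearer to muFAP-4-1BBL. Cx3cr1, the fractalkine receptor of patrolling monocytes and resident macrophages, was at 24.5, 14.7 and 35.2 CPM in RT and at 87.5, 89.7 and 54.2 in muFAP-4-1BBL (log2 difference -1.64, SE 0.31, adjusted p = 0.0205), with a combined-group mean of 69.9 ± 14.4. It followed the muscle score inversely over the 9 libraries outside RT (Spearman rho -0.95), and the call was lost without RT 1, muFAP-4-1BBL 1 or muFAP-4-1BBL 2. Adgrg5, an adhesion receptor of leukocytes, averaged 10 ± 2.63 CPM in RT, 25.9 ± 4.39 in muFAP-4-1BBL and 26.4 ± 5.39 in the combined group (log2 difference between the single treatments -1.37, adjusted p = 0.00729). Cd33, an inhibitory sialic acid receptor, averaged 16.2 ± 4.67 CPM in RT, 35.4 ± 1.00 in muFAP-4-1BBL and 30.7 ± 4.13 in the combined group (log2 difference between the single treatments -1.12, adjusted p = 0.00635). Untreated libraries held 1487, 1872 and 1969 counts of Cd33, above the 1380, 1008 and 1118 of the combined group. For Cx3cr1 they held 2835, 3423 and 4195 counts, against an overlapping 2646, 2123 and 3186 in the combined group. Under the muscle covariate the estimates were -0.96 (SE 0.52) for Cx3cr1, -0.93 (SE 0.37) for Adgrg5 and -1.06 (SE 0.32) for Cd33. Treml4, a receptor on dendritic cells and macrophages that binds dead cells, averaged 2 ± 0.913 CPM in RT and 6.54 ± 1.88 in muFAP-4-1BBL (adjusted p = 0.0257), a call lost in 4 of the 6 leave-one-out fits.

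Ly6c2, a surface antigen of inflammatory monocytes, rose, and it was at 58.5, 63.1 and 61.3 CPM in RT, at 19.7, 24.0 and 25.8 in muFAP-4-1BBL and at 18.9, 16.3 and 17.7 in untreated tumours. The RT libraries were tightly grouped and far above the rest (log2 difference between the single treatments 1.40, SE 0.19, adjusted p = 0.00305), and the combined group averaged 56.8 ± 18.8. Spp1, the secreted phosphoprotein osteopontin, averaged 198 ± 58.0 CPM in RT and 112 ± 7.85 in muFAP-4-1BBL (adjusted p = 0.0325), but 95.3 ± 2.15 in the combined group, and the call was lost in 5 of the 6 leave-one-out fits. With Cx3cr1 these made up the 3 calls among 29 macrophage and monocyte genes, whose median was -0.07. Of all tested genes 3.51% were called. Il1rl1, which encodes the interleukin 33 receptor ST2 and was outside every list, averaged 92.8 ± 7.99 CPM in RT, 48.4 ± 4.70 in muFAP-4-1BBL and 82.3 ± 2.21 in the combined group (log2 difference between the single treatments 0.94, SE 0.10, adjusted p = 0.00116) and passed in every leave-one-out fit.

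Genes of antigen presentation by MHC class II lay mostly below 0, and the number called differed between tools. Of 12 genes edgeR called 1, DESeq2 7 and limma-voom 2. Of the 12, 11 lay below 0 and without overlap between the groups, which holds for 7.58% of all tested genes. An unadjusted p under 0.05 was found for 11 of the 12, against 17.1% of all tested genes. The median was -1.22, the lowest of the 39 lists. H2-Aa, a class II alpha chain, was at 368, 90.9 and 358 CPM in RT and at 739, 681 and 711 in muFAP-4-1BBL (log2 difference -1.38, SE 0.47, adjusted p = 0.159). RT 2 was far below the other RT libraries, and the list as a whole had that spread: its mean log2 CPM was 6.05, 4.73 and 6.08 in RT and 6.85, 6.72 and 6.88 in muFAP-4-1BBL. In the combined group, irradiated and given muFAP-4-1BBL but low in muscle, the mean was 6.56, 7.29 and 7.45, above every RT library. In untreated tumours it was 6.51 to 7. Under the muscle covariate the list's median was -1.26. Ciita, the master regulator of class II transcription, followed the same order, at 26.4, 7.71 and 36.0 CPM in RT and 40.3, 61.2 and 69.9 in muFAP-4-1BBL (adjusted p = 0.255). H2-Ob, a chain that restrains peptide loading, was the single call, averaging 0.830 ± 0.254 CPM in RT and 2.78 ± 0.355 in muFAP-4-1BBL (log2 difference -1.74, adjusted p = 0.0117), and it passed in every leave-one-out fit. Of 20 dendritic cell genes 19 lay below 0, with a median of -0.44, and Cd207, the lectin langerin, was the only one past the threshold (log2 difference -1.46, adjusted p = 0.0277), lost in 5 of the 6 leave-one-out fits. The dendritic list's mean log2 CPM was 2.33 to 2.91 in RT, 3.03 to 3.5 in muFAP-4-1BBL, 3.28 to 3.5 in the combined group and 2.9 to 3.17 in untreated tumours.

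Ccl7 and Ccl2, chemokines that draw monocytes, rose in RT. Ccl7 was at 110, 78.9 and 91.5 CPM in RT, at 33, 53.3 and 36.0 in muFAP-4-1BBL and at 21.0, 20.5 and 28.7 in untreated tumours (log2 difference between the single treatments 1.2, SE 0.21, adjusted p = 0.0134). Ccl2, the neighbour of Ccl7 and fellow ligand of the receptor Ccr2, averaged 90.7 ± 19.2 CPM in RT, 46.0 ± 3.32 in muFAP-4-1BBL and 28.4 ± 3.88 in untreated tumours (log2 difference between the single treatments 0.98, adjusted p = 0.0117). The combined group averaged 71.8 ± 15.1 CPM of Ccl7 and 75.2 ± 15.8 of Ccl2. Both were ordered RT, muFAP-4-1BBL, untreated without overlap between neighbours, and both calls were lost without muFAP-4-1BBL 1. Cxcl14, a chemokine of stroma and epithelium, averaged 107 ± 16.3 CPM in RT and 46.2 ± 5.62 in muFAP-4-1BBL (log2 difference 1.21, adjusted p = 0.00635), with 74.8 ± 14.2 in the combined group, and passed in every leave-one-out fit. With Cxcr6 these were the 4 calls among 32 chemokine and receptor genes, whose median was 0.06. The share called among all tested genes was 3.51%.

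Stress and early response genes gave few calls. Ptgs2, the inducible cyclooxygenase, averaged 158 ± 3.08 CPM in RT, 95.8 ± 23.9 in muFAP-4-1BBL and 45.3 ± 6.39 in untreated tumours (log2 difference between the single treatments 0.72, adjusted p = 0.0287), the single call among 30 inflammatory genes and one lost in 5 of the 6 leave-one-out fits. Il1b, a cytokine of activated myeloid cells, was at 40.8, 21.9 and 35.8 CPM in RT and at 86.0, 64.8 and 48.4 in muFAP-4-1BBL, lower in RT without overlap but short of the threshold (adjusted p = 0.0922). Fosl1, an AP-1 subunit, averaged 85.5 ± 12.8 CPM in RT and 51.5 ± 3.66 in muFAP-4-1BBL (adjusted p = 0.00843), and Egr1, an early growth response factor, averaged 71.9 ± 11.5 in RT and 45.7 ± 7.62 in muFAP-4-1BBL (adjusted p = 0.0421, and 0.0558 with the replicate block), the 2 calls among 23 immediate early genes. The combined group averaged 73.2 ± 9.09 CPM of Fosl1 and 69.1 ± 10 of Egr1. The Egr1 call was lost in 4 of the 6 leave-one-out fits. Of 20 heat shock genes 3 rose, against 2.67% of all tested genes. Cryab, a small heat shock protein abundant in muscle, averaged 153 ± 26.5 CPM in RT and 57.3 ± 10.9 in muFAP-4-1BBL. Hspb8, its relative, averaged 142 ± 10 in RT and 83.5 ± 10.6 in muFAP-4-1BBL. Hsph1, a large chaperone, averaged 200 ± 31.2 in RT and 128 ± 29.0 in muFAP-4-1BBL, a call lost in 5 of the 6 leave-one-out fits. In the combined group Cryab averaged 68.1 ± 14.4 CPM, Hspb8 96.2 ± 10.4 and Hsph1 84.4 ± 5.14, all nearer to muFAP-4-1BBL than to RT; the Cryab estimate under the muscle covariate was 0.82 (SE 0.32).

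Of 24 listed genes of cholesterol synthesis and sterol control, 4 fell, against 0.839% of all tested genes. Of the 24, 21 lay below 0, and the median was -0.75. Srebf2, the transcription factor that drives the pathway, was at 117, 123 and 101 CPM in RT, at 243, 154 and 203 in muFAP-4-1BBL and at 226, 246 and 269 in untreated tumours (log2 difference between the single treatments -0.81, SE 0.16, adjusted p = 0.0193). The RT libraries lay below all others of these 9, and muFAP-4-1BBL 2 was the lowest outside RT. Insig1, which holds the factor in the endoplasmic reticulum, averaged 20.0 ± 3.89 CPM in RT and 38.6 ± 12.9 in muFAP-4-1BBL (log2 difference -0.95, adjusted p = 0.0283). Lss, the enzyme that closes the sterol ring, averaged 23.9 ± 2.47 CPM in RT and 36.7 ± 6.28 in muFAP-4-1BBL (log2 difference -0.62, adjusted p = 0.0220), and Stard4, a sterol carrier, averaged 29.3 ± 6.55 in RT and 56.0 ± 13.9 in muFAP-4-1BBL (log2 difference -0.93, adjusted p = 0.0352, and 0.057 with the replicate block).

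Sqle, a rate-limiting enzyme of the pathway, was at 29.4, 40.6 and 26.5 CPM in RT and at 83.7, 43.9 and 54.6 in muFAP-4-1BBL (adjusted p = 0.0554). The count of 4 moved with single muFAP-4-1BBL libraries. It was 0 without muFAP-4-1BBL 1, the library with the highest levels, and 9 without muFAP-4-1BBL 2, the library with the lowest. The combined group was as low as RT, with 102 ± 16.0 CPM of Srebf2, 19.0 ± 1.56 of Insig1, 23.5 ± 1.63 of Lss and 22.9 ± 4.48 of Sqle. Under the muscle covariate the list's median was -0.88.

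The largest differences of the comparison were in skeletal muscle genes. All 38 listed muscle fibre genes lay above 0 with the RT libraries above the muFAP-4-1BBL libraries, which holds for 9.53% of all tested genes. The median log2 difference was 3.42, and 8 of the 38 genes passed the threshold in edgeR, against 2.67% of all tested genes. DESeq2 called 33 of them and limma-voom 35, and 37 had an unadjusted p under 0.05 in edgeR. Without muFAP-4-1BBL 3, the library of its group with the most muscle RNA, edgeR called 30. Myh7, the slow myosin heavy chain of type I fibres and heart, was at 29.4, 56.2 and 104 CPM in RT and at 0.176, 0.0868 and 0.145 in muFAP-4-1BBL, from 7611 counts in RT and 15 in muFAP-4-1BBL (log2 difference 8.81, SE 0.97, adjusted p = 0.00287). In the combined group 1 library held 0.911 CPM of Myh7 and the others 0.0764 and 0.0268. Tnni1, slow troponin I, averaged 9.03 ± 1.46 CPM in RT, 0.479 ± 0.153 in muFAP-4-1BBL and 2.12 ± 0.613 in the combined group. Casq2, a calcium-storing protein of slow and cardiac muscle, averaged 10.8 ± 1.81 CPM in RT and 1.13 ± 0.572 in muFAP-4-1BBL.

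Genes of muscle regeneration and of fibres that have lost their nerve rose as well, 10 of 19, and 1 fell. Of all tested genes 2.67% rose and 0.839% fell. Chrna1, a subunit of the acetylcholine receptor, was at 14.2, 9.73 and 14.9 CPM in RT and at 0.780, 0.260 and 1.25 in muFAP-4-1BBL (log2 difference 4.08, SE 0.60, adjusted p = 0.00635). Mymk, the membrane activator of myoblast fusion, and Chrng, the fetal acetylcholine receptor subunit, rested on few reads in muFAP-4-1BBL, with 150 counts of Mymk in RT and 7 in muFAP-4-1BBL, and 159 counts of Chrng in RT and 6 in muFAP-4-1BBL, summed over 3 libraries each. The count of 10 was 2 without muFAP-4-1BBL 1, 4 without muFAP-4-1BBL 2 and 6 without RT 2. Ankrd23, a muscle ankyrin repeat protein, was at 6.71, 6.21 and 7.70 CPM in RT and 0.982, 0.984 and 1.16 CPM in muFAP-4-1BBL (log2 difference 2.72, SE 0.20, adjusted p = 7.01e-05), and Mss51, a muscle mitochondrial factor, averaged 16.3 ± 4.30 CPM in RT and 1.85 ± 0.471 in muFAP-4-1BBL (log2 difference 3.14, adjusted p = 0.00014). Over the 9 libraries outside RT, 564 genes (3.18% of those tested) followed the muscle score with a Spearman rho above 0.7. They included 145 of the 474 genes higher in RT (30.6%) and 0 of the 149 lower ones.

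Of 29 genes of extracellular matrix remodelling 3 rose, namely Cilp, Fmod and Spp1, against 2.67% of all tested genes. Cilp, a matrix protein of cartilage and tendon, was at 93.6, 93.7 and 120 CPM in RT and at 13.2, 9.95 and 25.9 in muFAP-4-1BBL (log2 difference 2.65, SE 0.38, adjusted p = 0.00695), and Fmod, the collagen-binding proteoglycan fibromodulin, averaged 9.75 ± 3.14 CPM in RT and 1.38 ± 1.11 in muFAP-4-1BBL. Thbs4, a thrombospondin of tendon and muscle, stood at 52.7, 62.5 and 56.0 CPM in RT and at 1.94, 0.521 and 5.02 in muFAP-4-1BBL (log2 difference 4.52, adjusted p = 0.00945), a call lost without muFAP-4-1BBL 1. Angptl1, a secreted angiopoietin-like protein, averaged 18.7 ± 3.26 CPM in RT and 0.870 ± 0.829 in muFAP-4-1BBL (log2 difference 4.44, adjusted p = 0.00173). For these genes the groups were far apart and the combined group stayed near muFAP-4-1BBL, at 23.1 ± 1.85 CPM for Cilp, 2.81 ± 1.29 for Thbs4 and 1.27 ± 0.183 for Angptl1. Cilp, Thbs4 and Angptl1 also followed the muscle score in the libraries outside RT (Spearman rho 0.77, 0.80 and 0.83), and their estimates under the muscle covariate were 1.35 (SE 0.39), 2.24 (SE 0.55) and 3.09 (SE 0.63). Collagen I itself did not pass: Col1a1 averaged 2550 ± 517 CPM in RT and 2470 ± 779 in muFAP-4-1BBL (adjusted p = 0.940).

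**Figure D5:**
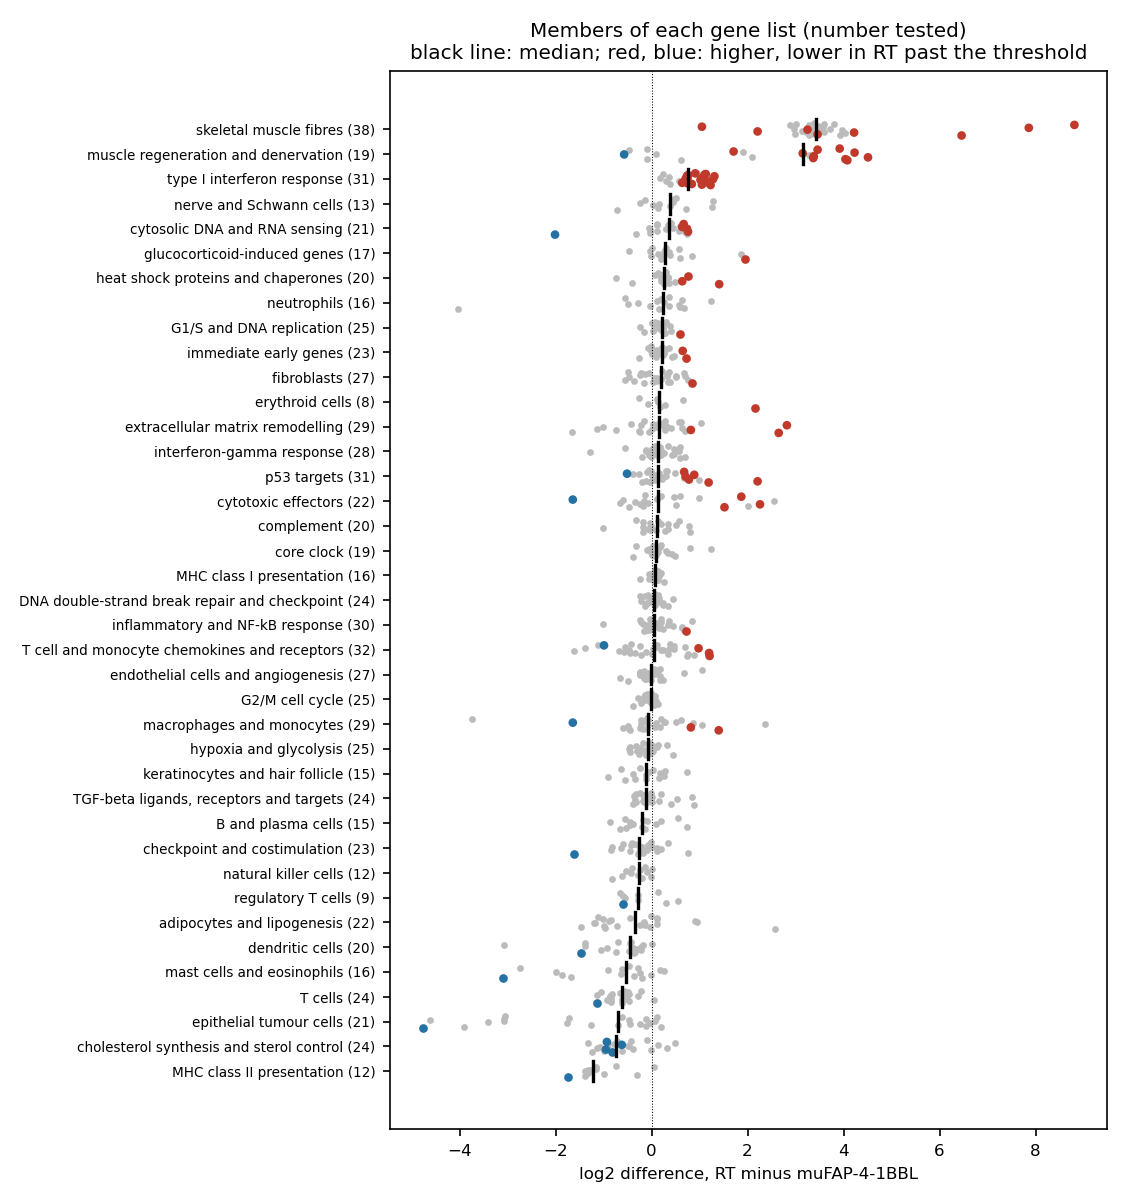
Log2 difference, RT minus muFAP-4-1BBL, of every tested member of the 39 gene lists, ordered by the list median (black line), with the number tested in brackets; red members were higher and blue members lower in RT at an adjusted p under 0.05. The muscle lists and the type I interferon list lie at the top with medians of 3.42, 3.15 and 0.76, and MHC class II and cholesterol synthesis at the bottom with medians of -1.22 and -0.75.

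Proliferation, oxygen and stromal programmes showed few or no calls. Of 25 genes of the G2 and M phases 0 passed by edgeR, DESeq2 or limma-voom, 0 had an unadjusted p under 0.05, and the median was -0.02, and Mki67, a nuclear antigen of cycling cells, was at 198, 430 and 377 CPM in RT and at 332, 378 and 405 in muFAP-4-1BBL, so that RT 1 alone was low. Of 25 genes of the G1 to S transition and DNA replication 1 rose (Ccne1, cyclin E1, at a log2 difference of 0.59 and adjusted p = 0.0325, 0.0523 with the replicate block, lost in 5 of the 6 leave-one-out fits), and the median was 0.21 with 23 of 25 above 0. The 27 fibroblast genes had 1 call, Ly6c1, an antigen of universal fibroblasts and endothelium, which averaged 110 ± 11.9 CPM in RT and 61.3 ± 15.8 in muFAP-4-1BBL (adjusted p = 0.0284, and 0.0551 with the replicate block). This call was lost in 4 of the 6 leave-one-out fits. The Ly6c1 log2 difference was 0.84, and its estimate under the muscle covariate was 0.27 (SE 0.26). There were 0 calls by edgeR among 25 hypoxia and glycolysis genes (4 at an unadjusted p under 0.05; 1 call by DESeq2), 27 endothelial genes (3 unadjusted; 2 by DESeq2 and 1 by limma-voom), 24 genes of TGF-beta signalling (3 unadjusted; 0 by either other tool), 20 of complement (2 unadjusted; 1 by DESeq2), 19 of the circadian clock (2 unadjusted; 0 by either other tool) and 16 of neutrophils (2 unadjusted; 2 by DESeq2). Per1, a clock gene, averaged 54.5 ± 11.7 CPM in RT, 43.9 ± 7.35 in muFAP-4-1BBL and 124 ± 17.4 in untreated tumours, so the single treatments lay close to each other and both below untreated (RT against muFAP-4-1BBL, adjusted p = 0.370). Of 21 epithelial genes 18 lay below 0, with a median of -0.70, but most were at very low levels, and the single call, Cldn7, a tight junction protein, rested on 2 counts in RT and 59 in muFAP-4-1BBL and was lost in all 6 leave-one-out fits.

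Outside the lists, Tle2, a corepressor of Wnt and Notch signalling, was at 16.9, 12.7 and 16.5 CPM in RT and at 31.0, 28.8 and 25.5 in muFAP-4-1BBL (log2 difference -0.89, SE 0.12, adjusted p = 0.00299). Cdon, a cell surface coreceptor of Hedgehog signalling, averaged 134 ± 8.83 CPM in RT, 208 ± 21.0 in muFAP-4-1BBL, 149 ± 1.91 in the combined group and 227 ± 18.5 in untreated tumours. Sesn3, a sestrin under FoxO control, averaged 55.0 ± 10.8 CPM in RT and 98.1 ± 14.6 in muFAP-4-1BBL (log2 difference -0.84, adjusted p = 0.00837), in the direction opposite to its relative Sesn2. Cytip, a cytoskeletal adaptor of leukocytes, was at 15.6, 16.1 and 17.1 CPM in RT and at 23.9, 26.9 and 26.8 in muFAP-4-1BBL (log2 difference -0.67, adjusted p = 0.00745). For each of these 4 genes the RT libraries lay below the muFAP-4-1BBL libraries, and each call held in all 6 leave-one-out fits. The combined group averaged 21.0 ± 0.610 CPM of Tle2, 79.0 ± 1.98 of Sesn3 and 22.1 ± 1.14 of Cytip, between the means of RT and muFAP-4-1BBL.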

How the data were processed

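Gene expression was measured by polyA RNA sequencing of 12 libraries from mouse tumours, 3 libraries per treatment group, with groups and replicate numbers taken from the sample labels. The authors deposited unnormalised read-pair counts for each gene. Per the file headers, featureCounts 1.6.0 summed exons by gene identifier with the reverse strand option, on the GRCm39 genome and GENCODE M33 genes. The submitters' processing notes also name FastQC 0.11.8 and STAR 2.7.9a, beside limma and edgeR. TruSeq stranded libraries and a NovaSeq instrument were used, per the labels' protocols. Symbols came from a table that matched 51948 of 56884 gene identifiers.

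A 4-group model was fitted to all 12 libraries with edgeR 4.0.16 in R 4.3.3 (robust quasi-likelihood, TMM scaling, the filterByExpr low-count filter), and radiotherapy minus muFAP-4-1BBL was tested over 17757 genes with Benjamini-Hochberg adjustment at 0.05. On simulated data made from these libraries for this comparison (17488 genes), 28, 48, 80 and 76% of genes changed by 1.5, 2, 3 and 4 times were recovered, and 8 of 124 calls were false. The simulation drew each gene independently and held no muscle content that ran with RT. Its share of false calls therefore does not carry over to the calls reported here. Levels are CPM on TMM-scaled library sizes, not corrected for gene length. No library pair agreed within sampling noise. Alternatives covered scaling, the filter, DESeq2 1.42.0, limma-voom (limma 3.58.1), the 6 libraries alone, tissue covariates, a replicate block and leaving out each library.

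Named genes were the largest differences and smallest p among called genes that averaged 1 log2 CPM or more, up to 5 members of each list by p, and a fixed set with Fap, the 4-1BB pair, Cd8a, Ifng, Gzmb, Foxp3, Cd274, Cdkn1a, Mki67 and Per1; markers of tissue content (Krt8, Pdgfra, Epcam, Col1a1) come from the lists. Not all genes that meet this rule are reported here. The members and lists were chosen with earlier results of these data known. The labels give no meaning to the replicate numbers. In the data, same-numbered RT and muFAP-4-1BBL libraries deviated together from their group means (correlations 0.31, 0.18 and 0.43). Pairs of different number gave -0.47 to 0.25, the highest being RT 2 with muFAP-4-1BBL 1, so the match is not clean. The blocked value is therefore given where it changes a call.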

Additional observations from a re-analysis of the deposited data

How the results depend on the processing

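Of 623 genes, 474 higher and 149 lower, the counts moved by more than 1.5 times with DESeq2 (1333, 881 and 452), with only the 6 compared libraries (210, 182 and 28) and with the muscle score as a covariate (0, 0 and 0; 1314 genes at an unadjusted p under 0.05). The last follows in part from its construction, since the score separates RT from the other libraries; for the others the cause was not tested. Leaving out 1 library gave 139 to 884 genes in all, 109 to 713 higher and 30 to 244 lower. Other scalings, no filter, limma-voom, the adipocyte covariate and the replicate block kept the total between 495 and 856, and no named gene that passed the threshold changed sign under any alternative. Among named genes that did not pass, Fap, Tnfrsf9, Cd274, Ifng, Mki67, Krt8 and Col1a1 changed sign under the muscle covariate or without a library, without being called. The replicate block called 553 genes, 412 higher and 141 lower, sharing 480 with the unblocked fit. It ended the calls of 9 named genes (Ccne1, Ddb2, Dhx58, Egr1, Gzmd, Gzme, Ly6c1, Stard4 and Tlr12), gave 0 new ones, and changed no other call among them. Of 70 named genes that were called, 32 passed in all 6 leave-one-out fits. At this depth counting error is small for most genes; the number of libraries limits the test, and genes under 1 CPM in a group, such as Tox, Mymk, Chrng and Cldn7, rest on few reads.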
